A study of Mus musculus with 8 samples.

Results

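The CREB family and its coactivators are described here in hippocampal neurons treated with melanin-concentrating hormone (MCH). The 7 genes were taken by name from the 45706 genes of the deposited gene table, with earlier results of these data known. They are the cyclic AMP response element (CRE) binding factors *Creb1*, *Crem*, *Atf1*, *Creb3* and *Creb5*, and the coactivators *Crebbp* and *Ep300*. The 39 quantified transcripts of *Crem* were also split into short forms of the inducible cyclic AMP early repressor (ICER) type and long forms. All 7 genes passed the filter on low counts and were among the 14962 genes tested.

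The neurons came from C57/Bl6 wild-type mice at embryonic day 18 and were cultured. Wells received 1 µM MCH peptide or the vehicle H2O for 4 h, with 4 wells per treatment, numbered as replicates 1 to 4. Per the study's methods they came from 2 independent cultures, each with 2 wells per treatment. Which culture a well belongs to is not given in the sources used here, so *P* values measure the spread between wells, which are not all independent. All groups share the wild-type genotype, and the cultures hold several cell types. MCH is a hypothalamic neuropeptide, and its receptor MCHR1 couples to inhibitory G proteins that lower cyclic AMP.

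CREB1, CREM and ATF1 are closely related leucine zipper factors that sit on CREs as dimers. When cyclic AMP or calcium rises, kinases phosphorylate a serine in their kinase-inducible domain, and the phosphorylated domain recruits CBP and p300, the acetyltransferases encoded by *Crebbp* and *Ep300*. ICER is made from an internal promoter of *Crem* that is itself driven by CREs. It keeps the DNA-binding zipper and lacks the activating domains, so it represses CRE-driven genes. In neurons this circuit is known for its part in activity-regulated transcription and in memory. CREB3 is made as a protein anchored in the endoplasmic reticulum and is released by cleavage, and CREB5 belongs with ATF2 and ATF7.

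The phosphorylated serine separates the first of these groups from CREB3 and CREB5, so its codon is shown for *Creb1* and *Atf1*. The motif for phosphorylation by protein kinase A was found in the annotated proteins of *Creb1*, *Crem* and *Atf1* and not in those of *Creb3* or *Creb5*. Both stretches are 30 bases of coding sequence on GRCm38 (GENCODE annotation, plus strand), with the serine codon in capitals. The *Creb1* stretch lies in exon 4 at chr1:64566286-64566315 and encodes serine 119 of the 327-residue protein (transcript Creb1-202). The *Atf1* stretch lies in exon 3 at chr15:100245314-100245343 and encodes serine 63 (Atf1-201).
Creb1: agggaaatcctttcaaggaggcctTCCtac
Atf1: cacgggatcctggcccggcgcccaTCCtac
The pair had 18 of 30 bases in common, the serine codon among them.

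A promoter can also hold the element that these proteins bind. RefSeq windows of 300 bases around the gene start (GRCm38.p6) were matched for 6 of the 7 genes, all but *Crem*, and were searched on both strands for the palindromic full element TGACGTCA and for its core TGACG, which the full element contains on each strand. *Creb5* held a full element, starting 45 bases before the gene start in 1 of its 2 windows. *Atf1* held a core 90 bases before its start. The windows of the remaining 4 genes held neither set of letters. Among all 32851 windows, 588 (1.79%) held the full element and 6837 (20.8%) the core. The *Creb5* stretch at chr6:53287218-53287269 (plus strand) is shown with the full element in capitals, as the only full element found. The RefSeq and GENCODE gene starts differ here. The last base of the stretch is at −34 from the RefSeq start, whereas GENCODE starts the gene at the next base. The quantified transcript, 1 of 15 annotated for *Creb5*, starts 23.6 kb downstream of the stretch in the GENCODE annotation. That annotation gives it 2330 bases, whereas the effective length deposited for it is 2788. The model that was quantified may therefore differ, and its start is not known.
Creb5: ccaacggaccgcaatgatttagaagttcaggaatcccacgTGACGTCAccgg

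Compared per length, as TPM (transcript abundance scaled for length and depth) summed over the transcripts of each gene, the family spanned more than 100-fold in vehicle wells. *Creb3* was the most abundant with 94.9 ± 9.26 TPM (mean ± SD, n = 4 wells), followed by *Crem* with 48.0 ± 11.3 TPM. *Creb1* stood at 19.2 ± 1.73 TPM, *Atf1* at 13.1 ± 2.09 TPM and *Ep300* at 12.5 ± 1.09 TPM. *Crebbp* had 7.91 ± 0.337 TPM and *Creb5* 0.597 ± 0.0559 TPM. Over all 8 wells, neighbours in this order did not overlap, except *Atf1* and *Ep300*, whose ratio ranged from 0.524 to 1.14. *Creb3* exceeded *Crem* 1.5-fold to 2.6-fold in every well, and *Crem* exceeded *Creb1* 1.85-fold to 3.52-fold. *Crebbp* was 8.73-fold to 15.1-fold above *Creb5*. Of the 15 annotated transcripts of *Creb5* only 1 was quantified, so reads of its other forms may be missing from its level.

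**Figure D1:**
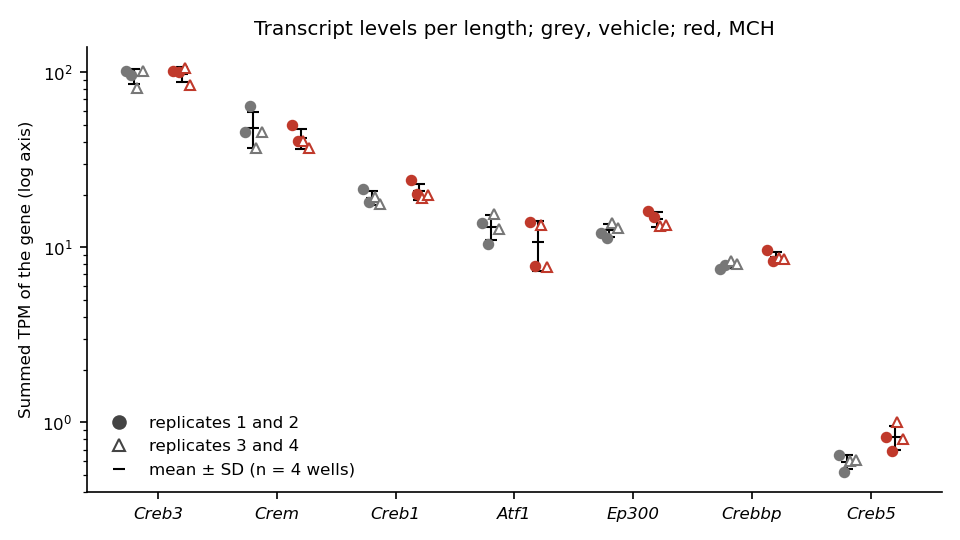
Summed TPM (log axis) of each gene in each well, vehicle in grey and MCH in red, with the mean ± SD of 4 wells; circles are replicates 1 and 2, triangles replicates 3 and 4. *Creb3* lies between 81.5 and 105.2 TPM and *Creb5* between 0.52 and 1.00 TPM.

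These levels rest on how salmon divided the reads among transcripts of different length. *Creb1* and *Creb3* had nearly the same reads in vehicle wells, 57.0 and 54.0 CPM (counts scaled to a common library size), and differed per length since the *Creb3* transcripts are shorter. The high TPM of *Crem* came largely from its ICER-type forms, which had 38.9 ± 11.5 TPM in vehicle wells against 6.14 ± 1.41 TPM for the long forms. Taken alone, the long forms were below *Creb1*, *Atf1* and *Ep300* in TPM. The ratio of ICER-type TPM to *Creb1* TPM was 2.05 ± 0.681 in vehicle wells and 1.41 ± 0.187 in MCH wells, and the wells overlapped.

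Treatments were compared with the quasi-likelihood test of edgeR, adjusted by the Benjamini-Hochberg method over all genes tested. A gene is called differentially expressed (DE) at an adjusted *P* under 0.05. None of the 7 genes was DE, where 35 of the 14962 genes (0.234%) were. DESeq2 also called 0 of the 7, and 154 of 24114 genes (0.639%). Limma voom called 0 of the 7, and 31 of 14962 genes. Without adjustment, 3 of the 7 had *P* under 0.05 (*Crem*, *Crebbp* and *Ep300*), against 1272 genes (8.5%) of all tested. All 4 MCH wells lay above all 4 vehicle wells for *Creb5* and *Crebbp*, a separation in this direction that 459 genes (3.07%) showed. In either direction these were 2 of the 7, against 902 genes (6.03%) of all tested. All 4 same-numbered pairs of wells differed in 1 direction for 5 of the 7 genes, as for 25.4% of all genes tested.

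The wells also fell into a pair of sides that the labels do not name, replicates 1 and 2 against replicates 3 and 4 in both treatments. The summed astrocyte markers (8 genes, such as *Gfap* and *Aqp4*) were 1083 to 1192 CPM on the first side and 2293 to 2622 CPM on the second, whereas between treatments they overlapped, from 1083 to 2481 CPM with vehicle and from 1151 to 2622 CPM with MCH. The other marker lists also separated by side. The 10 neuronal markers summed to 8786 to 8966 CPM on the first side and 7941 to 8184 CPM on the second, with 8133 to 8915 CPM in vehicle wells and 7941 to 8966 CPM in MCH wells. The oligodendrocyte lineage list (8 genes, of which *Sox10* and *Mog* were at 0 in all wells) summed to 57.3 to 67.9 CPM and 126.0 to 147.5 CPM, the 8 fibroblast and vessel genes to 21.1 to 26.5 CPM and 57.5 to 63.5 CPM, and the 7 microglial genes to 4.75 to 6.68 CPM and 7.69 to 10.2 CPM. Without a block, 0 markers of the 5 cell type lists were DE in edgeR or DESeq2, and 1 (*Mbp*) had an unadjusted *P* under 0.05. *Gad1*, which marks inhibitory neurons, fell with the sides as a block (adjusted *P* = 0.0267) and with the replicate block (0.0349), and *Slc1a2*, a glutamate transporter of astrocytes, rose with the replicate block (0.0353). Library totals ran from 26083936 to 31844861 counts. With the sides as a block 668 genes (4.46%) were DE, and with the replicate number as a block 596 genes (3.98%). For the genes described, block values are given where they alter a call.

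**Figure D2:**
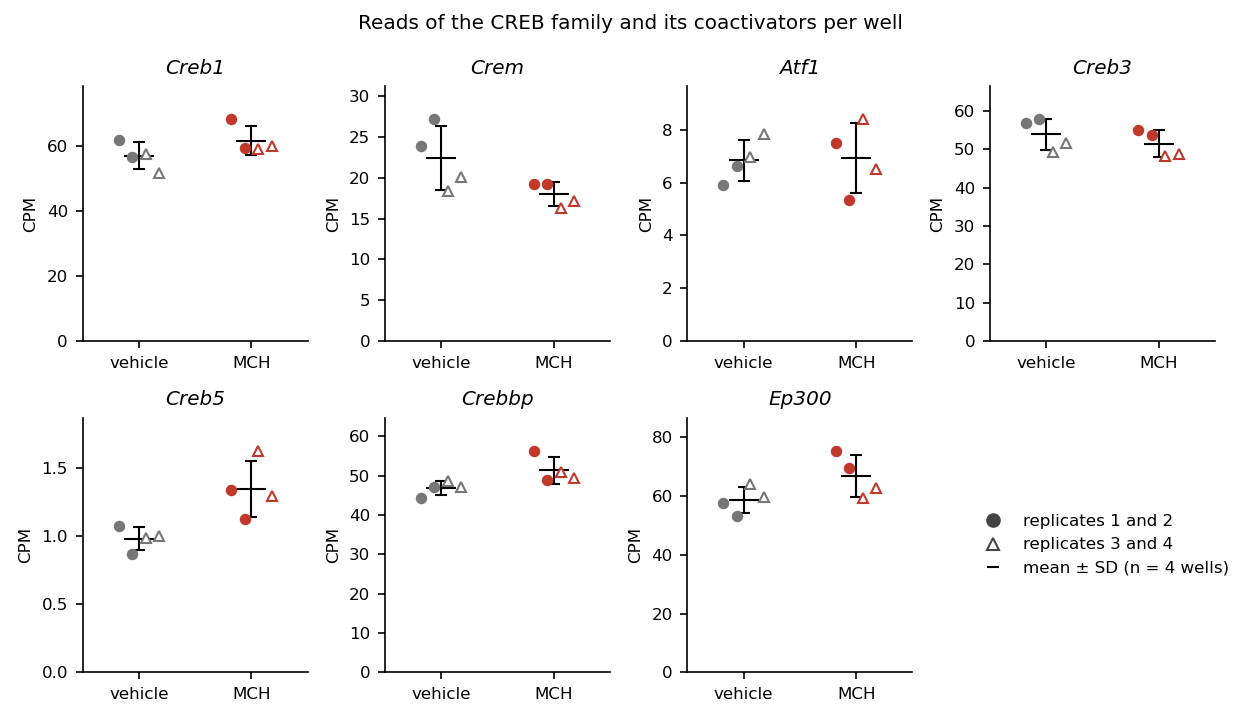
CPM of the 7 genes in each well (each axis starts at 0), with the mean ± SD of 4 wells; circles are replicates 1 and 2, triangles replicates 3 and 4. The MCH wells of *Creb5* and *Crebbp* lie above all vehicle wells, and those of *Crem* lie at 16.3 to 19.3 CPM against 18.4 to 27.2 CPM.

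*Creb1*, the activator that gives the family its name, was at 61.9, 56.7, 57.7 and 51.8 CPM in vehicle replicates 1 to 4. With MCH it was at 68.3, 59.3, 59.2 and 60.2 CPM. Each MCH well was above its same-numbered vehicle well, but the treatments overlapped. The log2 fold change was 0.12 (SE 0.065, adjusted *P* = 0.703), and the exact permutation *P* over the 70 assignments of treatments to wells was 0.2, or 0.28 adjusted over the 7 genes. Without MCH replicate 1 the log2 fold change was 0.066, and without vehicle replicate 4 it was 0.0764. The difference was 0.10 on the log2 CPM scale in replicates 1 and 2 and 0.13 in replicates 3 and 4.

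Reads of *Creb1* were assigned mainly to Creb1-202, which encodes the 327-residue protein and took 71.2% of them. The 341-residue form, known as the alpha isoform, was at 4.36 ± 0.655 TPM with vehicle and 4.93 ± 0.741 TPM with MCH. The 327-residue form, the delta isoform, was at 9.25 ± 1.05 TPM and 9.91 ± 0.662 TPM. The forms kept the same order in each of the 8 wells. The log2 fold change of the estimated reads was 0.15 (SE 0.15) for Creb1-201 and 0.11 (SE 0.070) for Creb1-202, and neither was DE (both adjusted *P* = 1.0 over 33527 transcripts).

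*Atf1*, a close relative of *Creb1*, had few reads. It was at 5.93, 6.63, 6.98 and 7.84 CPM with vehicle and at 7.51, 5.33, 8.41 and 6.53 CPM with MCH. The MCH wells lay on both sides of the vehicle wells, and 2 of the 4 pairs differed in each direction. Its log2 fold change was 0.022 (SE 0.15, adjusted *P* = 1.0). When counts were corrected for average transcript length it was −0.31 (adjusted *P* = 0.875), so its direction is not set by these data. Most of its reads (73.5%) went to Atf1-201.

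Among the other *Atf1* transcripts, reads were divided unevenly between a pair annotated as targets of nonsense-mediated decay. Atf1-206 was listed at 0, 0, 41.1 and 0 reads with vehicle and at 48.6, 38.0, 24.8 and 21.4 reads with MCH. The other transcript of this kind had 24.2, 25.6, 0 and 26.8 reads with vehicle and 0 in all MCH wells. Their sum was 24.2, 25.6, 41.1 and 26.8 reads with vehicle and 48.6, 38.0, 24.8 and 21.4 reads with MCH, so the treatments overlapped once the transcripts were added. Atf1-206 was not DE (log2 fold change 1.65, SE 1.58, adjusted *P* = 1.0).

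*Crem* encodes activators as well as repressors from a gene on the minus strand of chromosome 18 (3266048 to 3337748). It was at 23.9, 27.2, 18.4 and 20.1 CPM in vehicle replicates 1 to 4 and at 19.2, 19.3, 16.3 and 17.2 CPM in the MCH wells. Every MCH well lay below its same-numbered vehicle well, and the treatments overlapped because vehicle replicate 3 was lower than MCH replicates 1 and 2. Vehicle wells averaged 22.4 ± 3.92 CPM and MCH wells 18.01 ± 1.5 CPM, which gave a log2 fold change of −0.32 (SE 0.12). This was not DE (adjusted *P* = 0.501, exact permutation *P* = 0.114). Vehicle replicate 2 had the highest value, and without it the log2 fold change was −0.204. *Gm6225* overlaps *Crem* on the other strand, and the strand setting of the counting is not given in the sources used here. In RNA from whole wells, fewer expressing cells and less RNA per cell cannot be told apart.

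The *Crem* result depended on the sides. On average *Crem* was lower by 0.30 on the log2 CPM scale in replicates 3 and 4 than in replicates 1 and 2, nearly as large a difference as that between treatments. The MCH wells differed from the vehicle wells by −0.40 on the first side (replicates 1 and 2) and by −0.20 on the second. With the sides as a block *Crem* fell, with a log2 fold change of −0.31 (SE 0.063, adjusted *P* = 0.0063), and with the replicate number as a block it also fell (adjusted *P* = 0.00874). It was the only member called by either block, where 2.61% of all genes were called and lower with the sides as a block and 2.25% with the replicate block. The part of the cell type markers, which move with the sides, and of *Gad1* and *Slc1a2*, which passed the threshold in block fits, was not tested.

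**Figure D3:**
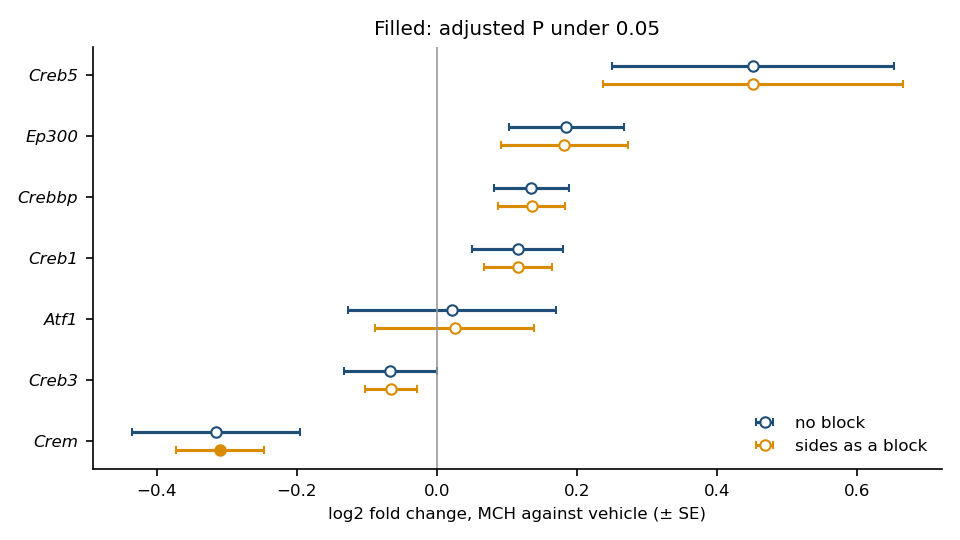
Log2 fold change ± SE of each gene, MCH against vehicle (n = 4 wells each), from edgeR without a block (blue) and with the sides as a block (orange); filled points have an adjusted *P* under 0.05. *Crem* with the block, at −0.31, is the single filled point.

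Within *Crem*, transcripts that begin downstream of the exon with the phosphorylated serine were counted as ICER-type. There were 7, encoding 95 to 125 residues, and 6 of them had reads in at least 1 well. The 25 long forms reach upstream of it, and the other 7 are annotated as processed, retained-intron or nonsense-mediated decay transcripts. ICER-type forms held 63.7 ± 2.34% of the *Crem* reads in vehicle wells.

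The summed ICER-type reads were at 14.9, 18.2, 11.7 and 12.4 CPM in vehicle wells and at 10.5, 12.2, 9.09 and 10.2 CPM in MCH wells. Each pair was lower with MCH, and the treatments overlapped by MCH replicate 2 against vehicle replicate 3. The log2 fold change was −0.45 (SE 0.15), which was not DE without a block (adjusted *P* = 0.412) or in DESeq2 (adjusted *P* = 0.207). With the replicate block the ICER-type reads fell by 0.44 on the log2 scale (adjusted *P* = 0.00169), and with the sides as a block likewise (adjusted *P* = 0.00389). On the log2 scale the difference was −0.54 on the first side and −0.32 on the second.

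The long forms were at 8.42, 8.69, 6.54 and 5.56 CPM with vehicle and at 5.29, 6.98, 4.66 and 6.19 CPM with MCH, lower with MCH in 3 of 4 pairs. Their log2 fold change was −0.34 (SE 0.17, adjusted *P* = 0.655), and they were not called with the sides as a block either (adjusted *P* = 0.125). The other forms were below 1 CPM in 5 of the 8 wells and are not described further.

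The share of *Crem* reads in ICER-type forms was 62.3, 67.0, 63.5 and 61.9% with vehicle and 54.5, 63.2, 55.8 and 59.4% with MCH. The mean was lower by 5.45 percentage points with MCH, but the wells overlapped (exact permutation *P* = 0.0857, two-sided). Set against the long forms alone, the share was 66.2 ± 2.58% and 64.6 ± 2.01% (exact permutation *P* = 0.371). The larger difference in the first share therefore moved with the other forms, which were highest in MCH replicates 1 and 3. A fall of ICER relative to the long forms was not detected.

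**Figure D4:**
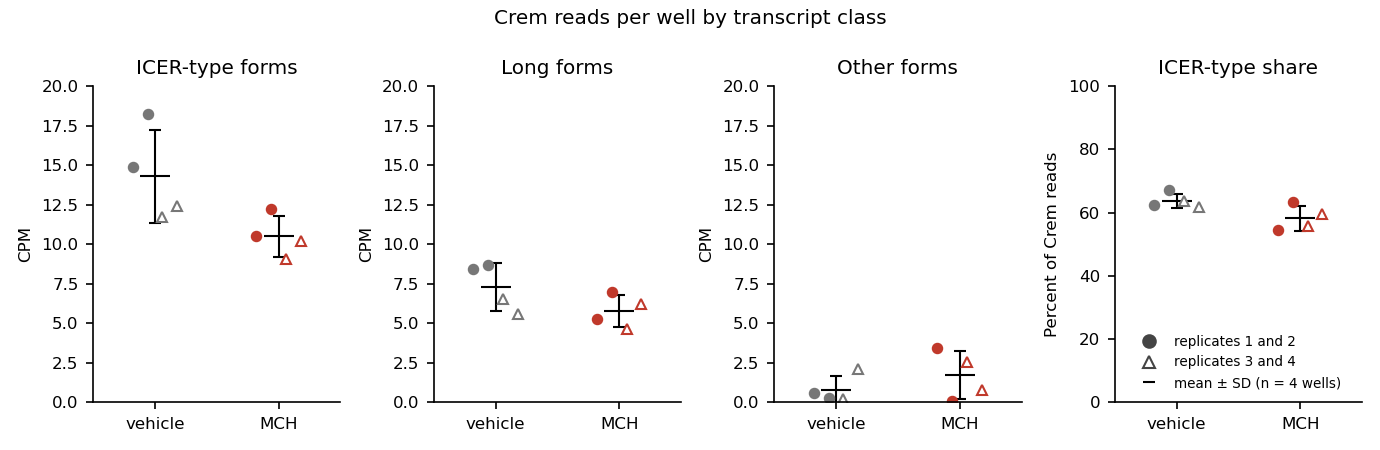
CPM of the ICER-type, long and other *Crem* transcripts in each well, and the percent of *Crem* reads in ICER-type forms, with the mean ± SD of 4 wells; circles are replicates 1 and 2, triangles replicates 3 and 4. ICER-type reads average 14.3 CPM with vehicle and 10.5 CPM with MCH.

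Single *Crem* transcripts were measured with more spread than their sums. Of the 39 quantified, 9 passed the filter on low counts and 0 were DE. Crem-218, the transcript with the most reads, had 115.0, 235.9, 156.1 and 109.8 reads with vehicle and 128.2, 110.7, 68.2 and 90.6 reads with MCH (log2 fold change −0.71, SE 0.29, adjusted *P* = 1.0). Crem-219 had 99.8, 117.5, 103.8 and 107.0 reads with vehicle, all above the 82.3, 96.3, 84.1 and 75.3 reads with MCH (log2 fold change −0.42, SE 0.17, adjusted *P* = 1.0). Crem-206, which has about as many reads, was at 91.4 ± 26 reads with vehicle and 97.1 ± 6.42 reads with MCH, a log2 fold change of 0.0011. These forms overlap over most of their length, so the division of reads among them is uncertain.

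The fourth tested ICER-type form, Crem-202, averaged slightly more reads with vehicle than with MCH (log2 fold change −0.61, SE 0.78). Among long forms, Crem-204 was at 54.5, 119.5, 61.7 and 39.5 reads with vehicle and at 0, 49.8, 21.2 and 5.7 reads with MCH (log2 fold change −1.84, SE 1.12). Crem-230, by contrast, averaged 49.9 ± 18.7 and 71.2 ± 21.4 reads (0.40, SE 0.36). Crem-233 and Crem-234 had log2 fold changes of −0.37 (SE 1.93) and −0.70 (SE 1.17), and Crem-225, annotated for nonsense-mediated decay, 1.60 (SE 1.95). All these adjusted *P* values were 1.0. Over the whole family, 25 of 74 quantified transcripts were tested and 0 were DE, as were 0.0% of the 33527 transcripts tested. Without adjustment 3 of the 25 had *P* under 0.05 (Crem-218, Crem-219 and Crebbp-201), against 4.4% of all tested. DESeq2 called 0 of the family's transcripts, and 219 of the 68421 transcripts that it tested.

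*Creb3*, the factor cleaved from the endoplasmic reticulum, was at 56.9, 57.9, 49.4 and 51.6 CPM with vehicle and at 55.1, 53.9, 48.2 and 48.8 CPM with MCH. The pairs were each lower with MCH by a small amount, and the treatments overlapped. Its log2 fold change was −0.066 (SE 0.066, adjusted *P* = 0.886), and with counts corrected for average transcript length it was 0.024. *Tln1* and *Gba2* overlap it on the other strand, with the same limit as for *Crem*. Creb3-201 took 82.0% of the reads and 46.7% of the TPM.

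*Creb5*, an ATF2 relative, was the least abundant and had the largest fold change of the family. It was at 1.08, 0.87, 0.987 and 1.0 CPM in the vehicle wells, from 28, 24, 28 and 27 reads, and at 1.34, 1.13, 1.63 and 1.3 CPM in the MCH wells, from 42, 30, 47 and 37 reads. All MCH wells lay above all vehicle wells. The mean was 0.986 ± 0.0885 CPM with vehicle and 1.35 ± 0.207 CPM with MCH, a log2 fold change of 0.45 (SE 0.20). It was not DE (adjusted *P* = 0.589, and 0.269 with the sides as a block). The exact permutation *P* was 0.0286, the smallest that 4 against 4 wells can give, and 0.1 when adjusted over the 7 genes. Reads were counted on 1 transcript, Creb5-201, the only one of *Creb5* in the deposited tables. As annotated in GENCODE it does not start at the CRE given above.

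*Crebbp* (CBP) was at 44.3, 47.0, 48.6 and 47.1 CPM with vehicle and at 56.3, 48.9, 50.8 and 49.4 CPM with MCH. The treatments did not overlap, though the MCH wells of replicates 2 and 4 were close to the highest vehicle well. Its log2 fold change was 0.13 (SE 0.054, adjusted *P* = 0.532), with an exact permutation *P* of 0.0286 and 0.1 adjusted over the 7 genes. On the log2 CPM scale the difference was 0.20 on the first side and 0.065 on the second. With the sides as a block the adjusted *P* was 0.124.

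*Ep300* (p300) was at 57.4, 53.3, 64.0 and 59.7 CPM with vehicle and at 75.3, 69.4, 59.3 and 62.5 CPM with MCH. The MCH wells of replicates 1 and 2 were above all vehicle wells, and those of replicates 3 and 4 were inside the vehicle range. The log2 fold change was 0.18 (SE 0.082, adjusted *P* = 0.587), and the exact permutation *P* was 0.143. Without MCH replicate 1 the log2 fold change was 0.123. On the first side the difference was 0.39 on the log2 CPM scale, against −0.023 on the second. A test of that difference between sides was not made. Ep300-201, which encodes 2412 residues, took 96.7% of the reads, and Crebbp-201, with 2441 residues, took 100% of those of its gene.

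The genes around CREB were grouped as relatives, kinases, coactivators and targets. Of 13 relatives from the CREB and ATF genes, 11 were tested and 0 were DE without a block, with a median log2 fold change of −0.0175 against −0.0027 for all genes tested. Without adjustment 3 of the 11 had *P* under 0.05, against 8.5% of all genes tested. DESeq2, which called 0.639% of all genes, called *Crebrf* (adjusted *P* = 0.000661) and *Crebl2* (adjusted *P* = 0.0371). EdgeR without the filter called *Crebrf* (adjusted *P* = 0.03), among 46 of 24132 genes. With DESeq2 and a length offset neither was called (adjusted *P* = 0.16 and 0.292). *Crebrf*, which encodes a regulator that lowers CREB3 protein, was at 19.3, 16.2, 21 and 20.2 CPM in vehicle wells and at 24.3, 25.6, 27.3 and 28.9 CPM with MCH. Its treatments did not overlap, and the log2 fold change was 0.47 (SE 0.088, adjusted *P* = 0.0993). *Crebl2*, a small CREB-like zipper protein, did not overlap either, at 15.7 to 17.0 CPM with vehicle and 18.8 to 20.8 CPM with MCH (0.27, SE 0.054, adjusted *P* = 0.126).

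With the sides as a block 3 of the 11 relatives rose and none fell, where 4.46% of all genes were called in either direction. They were *Crebrf* (adjusted *P* = 5.41e-05), *Crebl2* (0.0102) and *Atf7* (0.0302), the relative of ATF2 and CREB5. *Atf7* averaged 18.2 ± 1.76 CPM with vehicle and 21.3 ± 0.844 CPM with MCH. *Atf2* itself, with 164 ± 7.28 and 169 ± 6.29 CPM, had a log2 fold change of 0.047 (SE 0.043). *Creb3l3* and *Creb3l4* did not pass the filter on low counts.

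All 9 genes for kinases that phosphorylate CREB were tested and 0 were DE without a block or in DESeq2, with a median log2 fold change of −0.0358. Without adjustment 0 of the 9 had *P* under 0.05, against 8.5% of all genes tested. The largest changes were those of *Rps6ka2* (−0.19, SE 0.091), *Camk4* (0.10, SE 0.089) and *Prkacb* (−0.048, SE 0.050). *Rps6ka2*, a ribosomal S6 kinase, averaged 127 ± 16.0 CPM with vehicle and 111 ± 8.21 CPM with MCH (adjusted *P* = 0.617), and fell with the sides as a block (adjusted *P* = 0.00417). *Prkaca*, a catalytic subunit of protein kinase A, was at 304 ± 11.4 and 295 ± 9.89 CPM (adjusted *P* = 0.878).

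Of the 11 further acetyltransferases and CREB coactivators, all were tested and 0 were DE without a block or in DESeq2, with a median log2 fold change of 0.0414. Without adjustment 2 of them had *P* under 0.05, against 8.5% of all genes tested. *Ncoa1*, a steroid receptor coactivator that works with CBP, was at 117 to 122 CPM with vehicle and at 125 to 134 CPM with MCH without overlap (0.13, SE 0.035, adjusted *P* = 0.284). With the sides as a block it rose (adjusted *P* = 0.0205). *Cited2*, which competes for a domain of CBP and p300, averaged 59.5 ± 4.56 and 52.5 ± 3.13 CPM (−0.18, SE 0.063, adjusted *P* = 0.456), and fell with that block (adjusted *P* = 0.0323). *Kat2b* had a log2 fold change of 0.14 (SE 0.14). *Crtc1*, the CREB-regulated coactivator of neurons, was at 148 ± 3.07 and 158 ± 9.80 CPM (0.088, SE 0.047, adjusted *P* = 0.678).

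The largest differences stood in the genes that CREB is known to act on. Of 30 CREB targets, all tested, 6 fell and 0 rose with MCH, where 0.207% of all genes were DE and lower. The median log2 fold change of the list was −0.326, and 28 of 30 values were below 0. In 15 of 30 genes all MCH wells lay below all vehicle wells, as in 2.96% of all genes, and in 0 of 30 above. The list was assembled from textbook targets with earlier results of these wells known, so it is not independent evidence of a direction. Its count of DE genes was 3 without vehicle replicate 4, 12 with DESeq2 and 18 with either block. Of all genes, 4 of 15130 were DE without vehicle replicate 4 and 0.639% with DESeq2. The 18 all fell, where 2.61% of all genes were called and lower with the sides as a block. With the replicate block that share was 2.25%.

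The 6 DE targets were *Fos*, *Fosb*, *Npas4*, *Arc*, *Sik1* and *Nr4a2*. *Fos*, a subunit of the AP-1 factor, was at 66.5, 70.4, 54.6 and 59.2 CPM with vehicle and at 36.9, 32.1, 31.9 and 32.6 CPM with MCH (−0.91, SE 0.084, adjusted *P* = 0.00492). *Npas4*, an activity-regulated factor of neurons, averaged 38.0 ± 2.33 and 19.8 ± 3.12 CPM (−0.94, SE 0.11, adjusted *P* = 0.0135). *Fosb* averaged 24 ± 1.53 and 13.8 ± 0.815 CPM (−0.80, SE 0.066, adjusted *P* = 0.00492). *Sik1*, a kinase that holds CRTC coactivators out of the nucleus, averaged 38.9 ± 2.86 and 25.2 ± 1.23 CPM (−0.63, SE 0.063, adjusted *P* = 0.0078). *Arc*, a regulator of glutamate receptor traffic, had a log2 fold change of −0.59 (SE 0.053, adjusted *P* = 0.00492), and *Nr4a2*, an orphan nuclear receptor, one of −0.39 (SE 0.053, adjusted *P* = 0.0249).

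*Nr4a1* had the largest change of the list, at 93.9 ± 20.8 and 45.4 ± 9.10 CPM (−1.05, SE 0.19), without reaching the threshold in edgeR (adjusted *P* = 0.126), whereas DESeq2 called it (adjusted *P* = 4.96e-07). Its vehicle wells were 110, 113, 71.9 and 80.4 CPM, higher on the first side, and with the sides as a block it fell (adjusted *P* = 2.05e-07). Among target genes with a RefSeq promoter window, 5 of 22 held the full CRE and 18 of 22 the core, against 2.03% and 23.0% of all 27025 genes with a window. These targets are known for their CREs, so the shares describe the list.

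**Figure D5:**
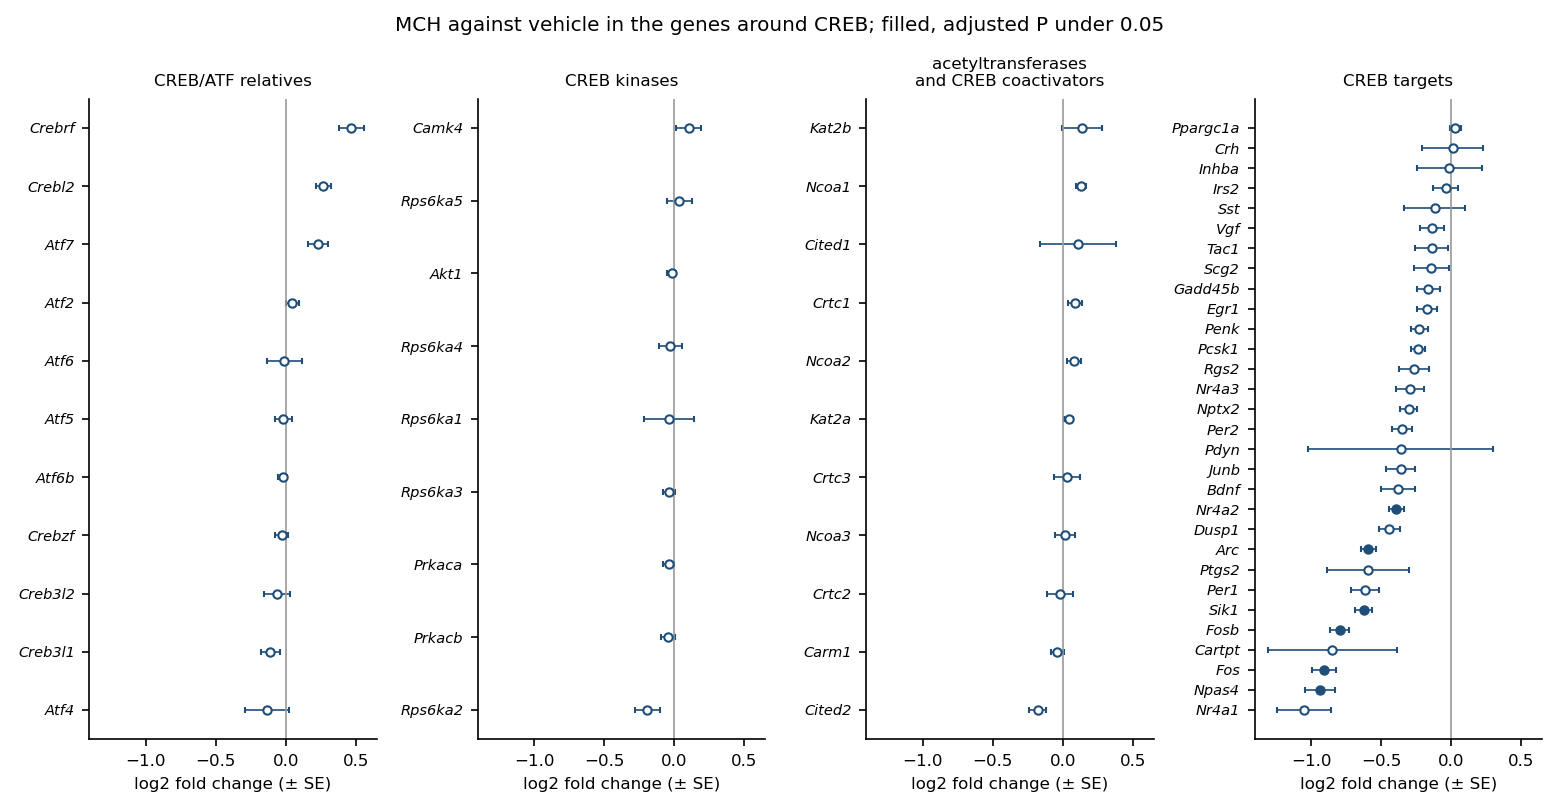
Log2 fold change ± SE, MCH against vehicle (n = 4 wells each, edgeR without a block), for the tested CREB and ATF relatives, CREB kinases, coactivators and CREB targets; filled points have an adjusted *P* under 0.05. The 6 filled points are targets with values from −0.94 to −0.39.

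Over the 8 wells, patterns were compared by Pearson's *r* of log2 CPM as a description. Wells share their side and treatment, so these values reflect both. Genes most like *Crem* included *Oaz2* (*r* = 0.99), *Sphk2* (0.989), *Mlx* (0.986) and *Pdxk* (0.985), with log2 fold changes between −0.21 and −0.066 and none of them DE. Those most like *Creb1* were *1700020I14Rik* (0.954), *Zfpm2* (0.95), *Gm38372* (0.933), *Alkbh8* (0.931) and *Zfp827* (0.931), again with none DE. Within the family the highest values were those of *Crem* with *Creb3* (0.886) and of *Crebbp* with *Ep300* (0.757), and the lowest was that of *Crem* with *Creb5* (−0.752).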

How the data were processed

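Poly-A RNA of 8 wells was sequenced as stranded libraries. Per the labels and the study's methods, the authors processed reads with nf-core/rnaseq and salmon on GRCm38, and the labels also name R 4.0.3 and DESeq2 1.13.0. The annotation release is not given in the sources used here. The labels tag the model as Alzheimer's disease and give the genotype as wild type, which is how the neurons are described here. Estimated counts per gene were deposited unscaled (9.13% of values are fractional). For each transcript the authors deposited an estimated count, an effective length and a TPM scaled by length and depth. Salmon divides reads of overlapping transcripts by likelihood, which adds error to single transcripts.

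Identifiers were named from GENCODE vM21 (45143 of 45706 genes, 108214 of 109617 transcripts). After rounding, edgeR 4.0.16 was run under R 4.3.3 (TMM factors, filterByExpr with a count minimum of 10 and a total minimum of 15, robust quasi-likelihood F test, Benjamini-Hochberg threshold of 0.05), without a block. The SE is the log2 fold change over the square root of F. CPM use TMM-scaled library sizes, and log2 CPM a prior count of 2. *Crem* form classes were summed and fitted in place of the *Crem* row. Exact two-sided permutation tests used 70 assignments, with a smallest *P* of 0.0286. DESeq2 1.42.0 and limma 3.58.1 served as alternatives, with other scaling, no filter, length offsets, blocks and each well left out. The tests were tried on simulated counts.

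Same-numbered wells correlated in their deviations from treatment means at 0.445 to 0.545 (4 of 4 pairs over 0.1). Other numbers of the same side correlated at 0.475 to 0.521 and wells across sides at −0.548 to −0.438. The replicate numbers therefore matched wells no more closely than the sides did. The pairing was judged from these values, as were the sides (first principal component, 59.8% of the variance), so block fits use the counts more than once.

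The members and lists were chosen with earlier results of these data known. Named genes are the 7 members, their most abundant transcripts, the tested *Crem* transcripts, the DE genes of each list and its 3 largest changes, and the 5 genes most like *Crem* and *Creb1*, of which 1 is not reported here. Other genes were named after their values were seen.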

Additional observations from a re-analysis of the deposited data

Results flagged for a closer look

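Of the 22 groups of 4 wells checked for a well far from the others (the 7 genes, the *Crem* form classes and the ICER-type share, in each treatment), 1 held such a well, and chance gives about 1 in 20. *Creb1* was at 68.3 CPM in MCH replicate 1, whereas the other MCH wells were at 59.2 to 60.2 CPM. MCH replicate 1 also had the highest total, 31844861 counts, and the highest *Crebbp* and *Ep300* CPM. Whether these go together was not tested. Without this well the *Creb1* log2 fold change was 0.066 (adjusted *P* = 0.843).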

How the results depend on the processing

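Without a block 0 of the 7 genes was called in any of the scaling, filter, length or tool alternatives or with any well left out, and 1 (*Crem*) with the replicate block and 1 with the sides as a block. For *Crem* the log2 fold change lay between −0.315 and −0.216 over the 9 alternatives on all wells and between −0.393 and −0.204 with a well left out (adjusted *P* from 0.277). The directions of *Creb1*, *Creb5*, *Crebbp* and *Ep300* held in all 17 alternatives. *Atf1* reversed to −0.305 with a length offset and −0.31 with DESeq2 and the same offset, and ranged from −0.0754 to 0.133 with a well left out. *Creb3* reversed to 0.0237 and 0.0186 with those offsets. The offset uses salmon's average lengths, and further causes were not tested.

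ICER-type reads changed by −0.44 with the replicate block and −0.443 with the sides as a block, both past the threshold, and by −0.529 to −0.306 with a well left out, never past it. The ICER-type share differed by −9.6 percentage points in TPM, −1.61 against long forms and −7.11 to −4.19 with a well left out, where 4 against 3 wells cannot reach 0.05. As 4 signed pairs under a replicate block the smallest possible exact *P* is 0.125. The transcripts Crem-233 (−1.64 to 0.331), Crem-206 (−0.172 to 0.134) and Crem-202 (−0.899 to 0.24) changed direction with a well left out, and Crem-206 was at −0.000343 without the filter.

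With DESeq2, 2 relatives and 12 targets were called, without the filter 1 relative, and with DESeq2 and a length offset 0 relatives and 11 targets. With either block the counts were 3 relatives, 1 kinase, 2 coactivators and 18 targets. Of all genes, 0.639% were called with DESeq2, 4.46% with the sides as a block and 3.98% with the replicate block. Without the filter 46 of 24132 genes were called, and with DESeq2 and a length offset 117 of 24112. With a well left out, targets called ranged from 3 to 7 and the non-overlapping members from 2 to 3. The share of all genes without overlap was not computed with a well left out, so the latter count has no background. All 4 pairs went in 1 direction for 5 members. Over all genes, calls ranged from 7 with a length offset to 668 with the sides as a block, and from 4 to 29 with a well left out. The replicate block changed no other member's call. *Creb5* had 24 to 47 reads a well.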
